A study of Solanum lycopersicum with 14 samples.

Results

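The genes described here are those whose transcripts were abundant in green M82 tomato fruit, stood far below that level once M82 ripened, and stood well above M82 in the yellow-fruited mutant n3122 of the same ages. They were chosen from the measured values. A gene had to reach at least 20 FPKM in M82 at 35 DPA, to be at most 0.25 times that level in M82 at 47 DPA, and to be at least 4 times higher in n3122 than in M82 at 47 DPA and again at 54 DPA, with 1 FPKM added to each value before a ratio was taken. FPKM is the number of fragments scaled to transcript length and library size, and DPA is the age of the fruit as labelled, in this field days post anthesis. Of 34725 genes in the tables, 239 met all 4 conditions. They were among 539 genes that met the 2 conditions on M82 alone, and those came from 8102 genes at or above 20 FPKM in M82 at 35 DPA. The word silenced is used below for this decline in M82, and does not mean a level near 0. The gene SAM1, for example, still stood at 311 FPKM in M82 at 47 DPA.

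RNA was sequenced from the pericarp, the flesh of the fruit wall, of greenhouse-grown tomato (Solanum lycopersicum). The mutant n3122, yellow-fruited and in the M82 background, was sampled at 35, 47, 54 and 60 DPA, and the red-fruited wild type M82 at 35, 47 and 54 DPA. The labels do not name the mutated gene of n3122. Each of the 7 groups had 2 libraries, but the tables give 1 value per gene and group, so a level here is the authors' single FPKM value, carries no SD, and the depth of each library is unknown. Whether paired libraries were made from different plants is not labelled, and the authors' q-values may therefore measure technical spread.

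As a tomato ripens, its chloroplasts become chromoplasts, chlorophyll and the light-harvesting proteins are broken down, and the pericarp softens. Genes of the photosynthetic apparatus, of cuticle growth and of the defence chemistry of green fruit are then turned down. Ethylene drives this switch in tomato, through EIN2, a central relay of ethylene signalling, and ripening regulators such as the MADS-box factor RIN. EIN2 itself stood at 3.75, 2.50, 2.91 and 1.95 FPKM in n3122 at 35, 47, 54 and 60 DPA, against 48.9, 35.0 and 40.8 FPKM in M82 at 35, 47 and 54 DPA. RIN stood at 2.66, 7.23, 28.3 and 364 FPKM in n3122 at these 4 ages, against 2.26, 733 and 977 FPKM in M82 at 35, 47 and 54 DPA. The labelled tissue held the ripening transcripts in both genotypes. The summed level of RIN, PG2A, PSY1, EXP1 and E8, all known from ripening pericarp, was 191, 343, 591 and 3299 FPKM in n3122 over the 4 ages, against 249.8, 14718 and 9789 FPKM in M82 over the 3 ages.

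The median level of the 239 genes was 68.0, 42.9, 34.2 and 14.8 FPKM in n3122 at 35, 47, 54 and 60 DPA, against 58.4, 4.46 and 1.77 FPKM in M82 at 35, 47 and 54 DPA. The low M82 medians and the gap at 47 and 54 DPA follow from how the genes were chosen. The levels of n3122 at 35 and 60 DPA did not enter the choice. The genes together took 2.92%, 1.69%, 1.58% and 0.720% of all FPKM in n3122 over its 4 ages, against 2.27%, 0.212% and 0.113% in M82 over its 3 ages. One gene with no checked name, Solyc11g013380, weighs on these shares. It was listed at 0, 1231, 675 and 0 FPKM in n3122 over the 4 ages, against 661, 0 and 0 FPKM in M82 over the 3 ages, and it was tested by the authors at no age. It was singled out after its values were seen. Without it the share was 1.60% and 1.52% in n3122 at 47 and 54 DPA, and 2.22% in M82 at 35 DPA.

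**Figure D1:**
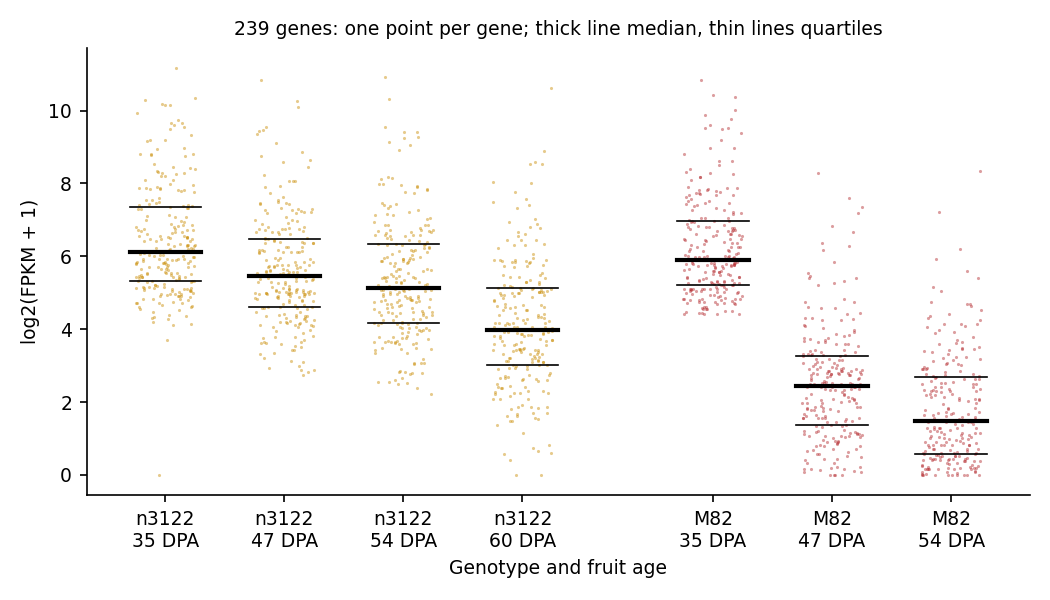
Level of each of the 239 genes in each group, as log2(FPKM + 1) on the vertical axis, with the 4 n3122 groups at left and the 3 M82 groups at right. Each point is 1 gene with the authors' value for the group, the thick line is the median and the thin lines are the quartiles. The median FPKM is 68.0 in n3122 and 58.4 in M82 at 35 DPA, and 42.9 in n3122 and 4.46 in M82 at 47 DPA.

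The 4 conditions were met by narrow margins for some genes. The lowest M82 level at 35 DPA among the 239 genes was 20.3 FPKM, and the nearest gene that missed this condition alone had 19.6 FPKM. The smallest ratio of n3122 to M82 was 4.001 at 47 DPA and 4.013 at 54 DPA, against 3.982 and 3.997 in the nearest genes that missed that condition alone. The genes that missed 1 condition alone numbered 84 for the level at 35 DPA, 28 for the decline in M82, 86 for the ratio at 47 DPA and 50 for the ratio at 54 DPA. By the authors' deposited tables, 221 of the 238 genes tested at 47 DPA had a q-value at or under 0.05 and were higher in n3122, where 13.7% of all tested genes were called higher. For 54 DPA their deposited table called 208 of 236 tested genes higher, where 18.1% of all tested genes were. Since the conditions used these contrasts, the counts describe the choice and support nothing. The authors' tables called 204 of the 239 genes at both ages.

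The genes were not all held at their earlier level in n3122. In n3122 the median gene, among the 238 other than Solyc11g013380, stood at 58.3% of its own 35 DPA level at 47 DPA, at 48.2% at 54 DPA and at 21.1% at 60 DPA. The lower and upper quartiles at 47 DPA were 32.5% and 87.2%. The same genes in M82 stood at a median of 6.63% of their own 35 DPA level at 47 DPA. With 1 FPKM added, 9 of the 239 genes had at least doubled in n3122 between 35 and 47 DPA, 130 were within 2-fold, and 100 were at most 0.5 times their earlier level, 30 of them at most 0.25 times. The share at most 0.5 times the earlier level was thus 41.8% of the 239 genes, against 58.3% (175) of the other 300 genes with the same decline in M82 and 7.62% (617) of the 8102 genes abundant in M82 at 35 DPA. The 239 genes were chosen for a high n3122 value at 47 DPA and the other 300 failed a condition on n3122, so the difference between these shares draws on the choice and is given as a description. These values set tables side by side that were scaled separately. The median change of n3122 from 35 to 47 DPA over 15814 genes at or above 1 FPKM in all groups was -0.12 on the log2 scale, and the median over the 239 genes was -0.75.

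**Figure D2:**
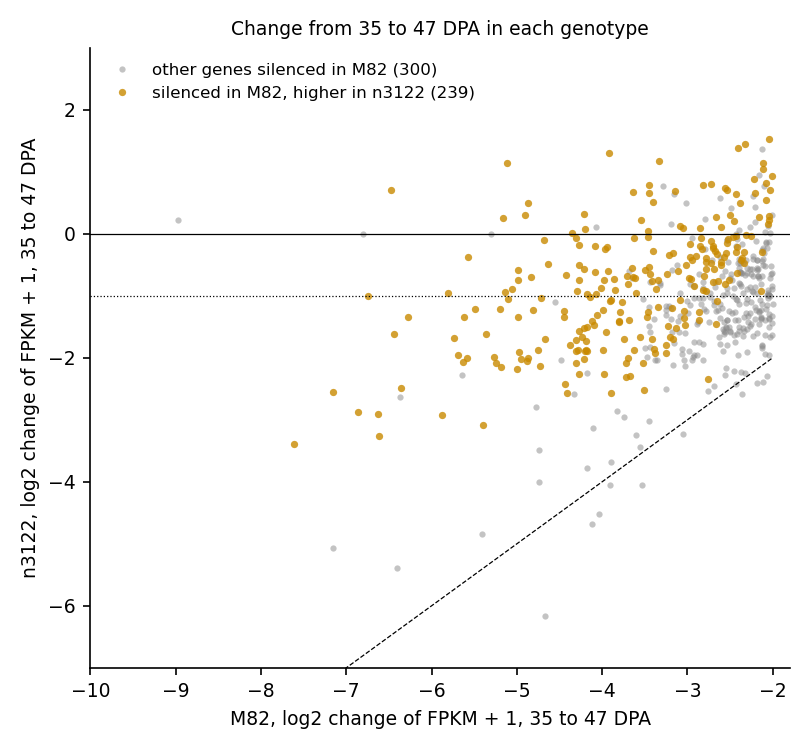
Change from 35 to 47 DPA as log2 of FPKM + 1, in n3122 on the vertical axis and in M82 on the horizontal axis, for the 239 genes and for the other 300 genes silenced in M82. Each point is 1 gene, the dashed line marks equal change in both genotypes, the solid line no change and the dotted line a change of -1 in n3122. Of the 239 genes, 100 lie on or below the dotted line, and 1 gene of the 239 and 2 of the 300 lie outside the axes.

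The tables name genes by identifier only. Symbols were paired with identifiers from general knowledge and checked by chromosome and gene order against NCBI RefSeq's tomato table (assembly SLM_r2.1). Of 248 pairs 154 passed, and they named 29 of the 239 genes. The check cannot tell a gene from close neighbours or near-identical copies, which matters for the chlorophyll a/b-binding, RBCS and defensin genes, since reads of such copies can be shared. Of these 29 genes, 13 belong to photosynthesis, 9 of them to light harvesting and 4 to carbon fixation. The light-harvesting and photosystem list held 24 checked genes, of which 14 had the decline in M82 and 9 met all conditions. The carbon fixation list held 8 checked genes, of which 4 met all conditions. Among the other lists the count was 2 of 17 for wound and defence proteins, 3 of 10 for cuticle and epidermis, 3 of 18 for the cell wall of growing fruit, and 1 of 9 for steroidal glycoalkaloid synthesis. No checked gene of chlorophyll synthesis (4 genes), of carotenoid and tocopherol synthesis (13), of sugar and starch (13), of hormone and light regulation (20) or among the ripening regulators (11) met the conditions. A further 7 genes in no list were named after their values had been seen, and so were FBA1 of the carbon fixation list and PSBR and CAB9 of the light-harvesting and photosystem list. For comparison, 239 of 8102 genes abundant in M82 at 35 DPA met the conditions.

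The chlorophyll a/b-binding (CAB) proteins carry the pigments that collect light for both photosystems. CAB7, of the photosystem I antenna, was the most abundant of them. It stood at 1130, 433, 290 and 189 FPKM in n3122 at 35, 47, 54 and 60 DPA, against 735, 99.7 and 5.47 FPKM in M82 at 35, 47 and 54 DPA. n3122 was higher at each shared age, and its 60 DPA level was above that of M82 at 47 DPA. CAB8, of the same antenna, stood at 577, 154, 87.8 and 43.7 FPKM in n3122, against 394, 20.9 and 3.29 FPKM in M82 at these ages. Of the photosystem II antenna, CAB3B stood at 636, 239, 69.1 and 30.9 FPKM in n3122, against 334, 23.0 and 1.87 FPKM in M82. CAB13, also of the photosystem II antenna, stood at 447, 45.7, 14.9 and 8.23 FPKM in n3122, against 212, 1.17 and 0.334 FPKM in M82. Its n3122 level at 47 DPA was 10.2% of that at 35 DPA, the lowest share among the 9 light-harvesting genes. The highest share was 41.6%, for CAB-10A. The other 4 were CAB4, CAB6A, CAB11 and CAB-10B, with 59.1, 60.9, 52.4 and 69.1 FPKM in n3122 at 47 DPA, against 12.1, 11.1, 8.76 and 12.5 FPKM in M82. So the CAB genes among the 239 were above M82 while also lower than in younger n3122 fruit. By 60 DPA they stood at 1.84% to 19.3% of their n3122 level at 35 DPA.

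Of the carbon fixation genes, RBCS1 and RBCS3 encode small subunits of Rubisco, the enzyme that fixes carbon dioxide. RBCS1 stood at 348, 100, 84.6 and 42.6 FPKM in n3122 over the 4 ages, against 183, 7.87 and 0.527 FPKM in M82 over the 3 ages. RBCS3 stood at 136, 31.2, 18.5 and 16.8 FPKM in n3122, against 70.2, 5.20 and 0.362 FPKM in M82. The authors' deposited table did not call RBCS3 at 54 DPA (q = 0.0856). FBA1 and FBA2 encode fructose-bisphosphate aldolases, which act in the Calvin cycle and in glycolysis. FBA1 stood at 237, 82.01, 94.9 and 86.7 FPKM in n3122, against 61.6, 6.11 and 0.784 FPKM in M82. FBA2 stood at 172, 32.9, 31.5 and 32.1 FPKM in n3122, against 47.8, 6.19 and 0.973 FPKM in M82. Unlike the Rubisco and CAB genes, the 2 aldolases had nearly level values in n3122 from 47 to 60 DPA, and no error is available to test this difference.

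Related genes missed the conditions mostly because the ratio at 47 DPA was under 4, and a gene could miss several conditions. Of the 15 checked light-harvesting and photosystem genes that missed them, 14 were under 4 times M82 at 47 DPA and 8 at 54 DPA. The decline in M82 was smaller than required in 8, and 6 were under 20 FPKM in M82 at 35 DPA. PSBR, a small subunit of photosystem II, stood at 3220, 1395, 1148 and 1260 FPKM in n3122, against 2235, 891 and 436 FPKM in M82. PSBQ, of the oxygen-evolving complex, stood at 1039, 519, 410 and 297 FPKM in n3122, against 701, 200 and 31.6 FPKM in M82. PSAD, of photosystem I, stood at 995, 398, 277 and 198.4 FPKM in n3122, against 655, 133 and 27.0 FPKM in M82. PSBP, of the oxygen-evolving complex, stood at 877, 339, 249 and 217 FPKM in n3122, against 517, 124 and 44.0 FPKM in M82. The n3122 values of all 4 were above those of M82 at every shared age, by less than the ratio required at 47 DPA. The authors' deposited tables called all 4 higher at 54 DPA, PSBQ, PSAD and PSBP at 47 DPA, and PSBP alone at 35 DPA. PSBR had q = 0.42 at 35 DPA and 0.15 at 47 DPA in those tables, and PSBQ and PSAD had q = 0.195 and 0.080 at 35 DPA. Of the 4 carbon fixation genes that missed the conditions, RBCS2 had the highest level, with 3107 and 909 FPKM in n3122 at 35 and 47 DPA, against 1720 and 242 FPKM in M82.

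**Figure D3:**
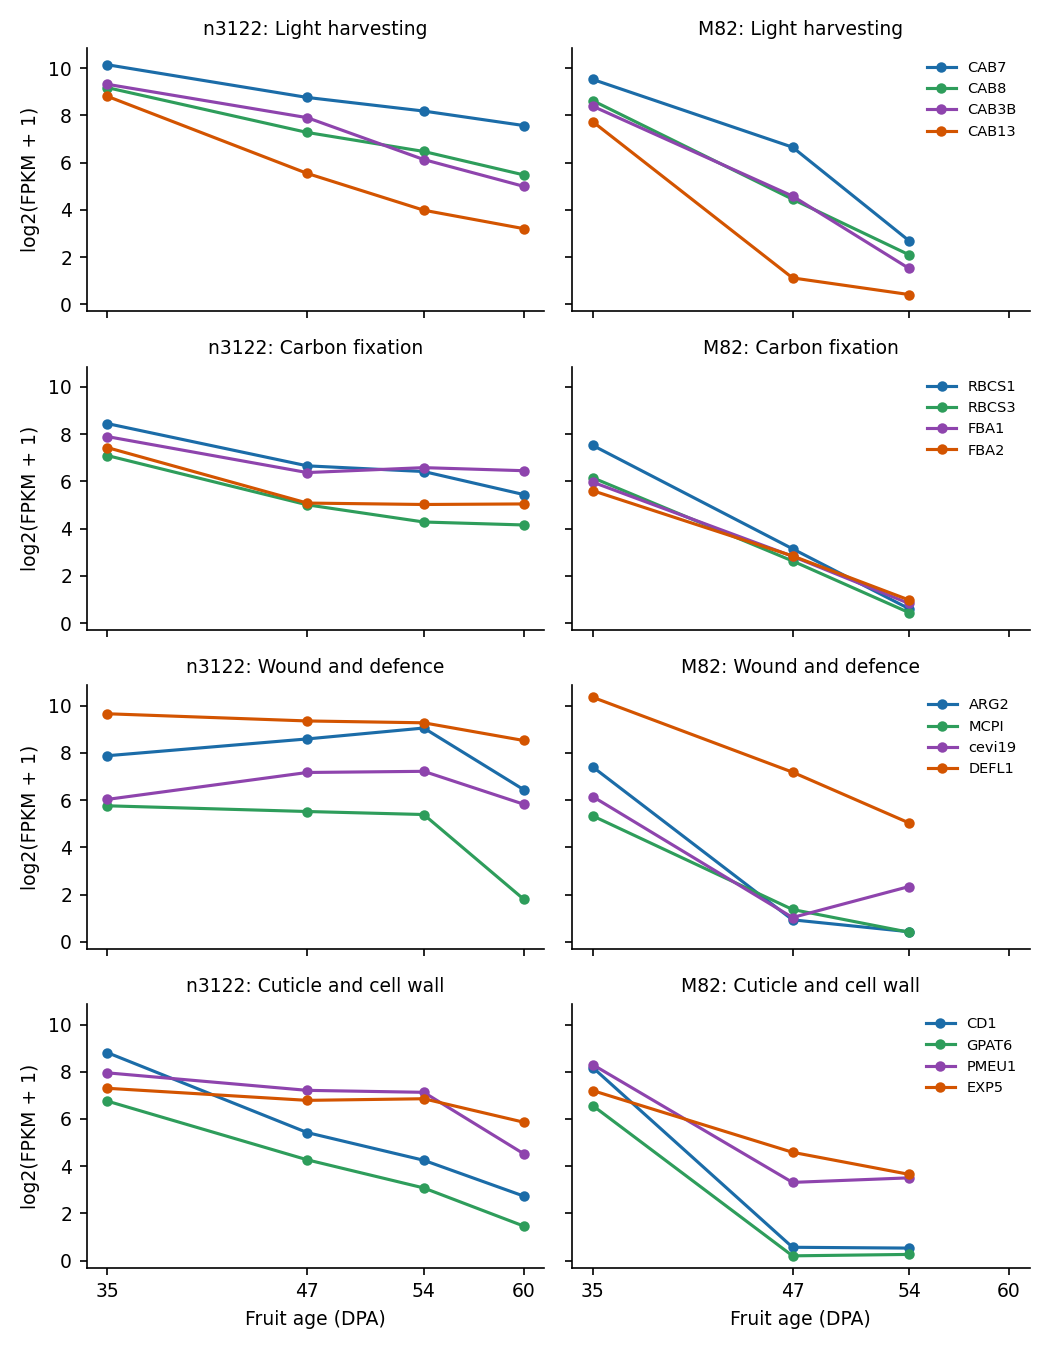
Levels of 16 of the 29 named genes as log2(FPKM + 1) against fruit age in DPA, with n3122 in the left column (35 to 60 DPA) and M82 in the right column (35 to 54 DPA). Rows show light harvesting, carbon fixation, wound and defence, and cuticle and cell wall genes, and each point is the authors' value for a group. The wound and defence row also holds cevi19 and DEFL1, which are not of that list and were named after their values were seen. ARG2 stands at 386 FPKM in n3122 and 0.914 FPKM in M82 at 47 DPA.

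A different course was seen in the 2 members of the wound and defence list. ARG2, an arginase that wounding and jasmonate induce in tomato leaves, stood at 235, 386, 531 and 86.4 FPKM in n3122 over the 4 ages, against 169, 0.914 and 0.349 FPKM in M82 over the 3 ages. Its n3122 level was thus higher at 47 and 54 DPA than at 35 DPA, whereas in M82 the transcript was close to 0 from 47 DPA on. MCPI, a metallocarboxypeptidase inhibitor, stood at 53.3, 44.9, 41.1 and 2.51 FPKM in n3122, against 39.4, 1.59 and 0.329 FPKM in M82. In n3122 it was nearly level to 54 DPA and low at 60 DPA. Of the 17 checked genes of the wound and defence list 15 missed the conditions, all 15 with a smaller decline in M82 than required. Many of the list were still higher in n3122. By the authors' deposited tables, of 16 tested at each age, 9 were called higher and 3 lower at 47 DPA. At 54 DPA 8 were called higher and 2 lower. Of all tested genes, 13.7% were called higher at 47 DPA and 18.1% at 54 DPA. Called lower were 1840 of 18751 at 47 DPA and 2165 of 18796 at 54 DPA. The genes called higher include ARG2 at both ages and MCPI at 47 DPA, both chosen for being higher. The median log2 difference over the 17 genes was 1.35 and 1.81 at these ages, against 0.01 and -0.02 over all tested genes. Among those called higher at both ages was TD2, a threonine deaminase, with 39.5, 43.0, 96.9 and 17.0 FPKM in n3122, against 6.02, 1.06 and 0.191 FPKM in M82, below 20 FPKM in M82 at 35 DPA. JAZ2, OPR3, CHI3 and LOXD, called higher by the authors' deposited tables at both ages, stood at 132, 118, 129.9 and 92.3 FPKM in n3122 at 47 DPA, against 5.50, 20.1, 13.7 and 21.3 FPKM in M82. On the lower side, NP24 was called lower at both ages. It stood at 42.4 and 98.9 FPKM in n3122 at 47 and 54 DPA, against 909 and 2024 FPKM in M82. AOS2 was called lower at 47 DPA, with 44.9 FPKM in n3122, against 117 FPKM in M82. NP24, AOS2 and the 5 genes before them were named after their values were seen. The 4 genes that follow had the highest M82 level at 35 DPA among the 15. LAPA2, a leucine aminopeptidase, stood at 163, 153, 170 and 169 FPKM in n3122, against 190, 283 and 233 FPKM in M82. CHI9, a chitinase, stood at 35.3, 25.2, 14.7 and 12.6 FPKM in n3122, against 93.5, 23.9 and 109.8 FPKM in M82. AOC, an enzyme of jasmonate synthesis, stood at 90.0, 181, 274 and 92.9 FPKM in n3122, against 87.8, 70.6 and 29.2 FPKM in M82. MYC2, a jasmonate-pathway transcription factor, stood at 57.9, 114, 90.1 and 104 FPKM in n3122, against 81.5, 100.4 and 133 FPKM in M82.

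The cuticle members build the waxy outer layer of the fruit. CD1, the cutin synthase that links cutin monomers, stood at 447, 42.0, 18.1 and 5.67 FPKM in n3122 over the 4 ages, against 289, 0.484 and 0.448 FPKM in M82 over the 3 ages. GPAT6, an acyltransferase of cutin monomer synthesis, stood at 107, 18.3, 7.46 and 1.77 FPKM in n3122, against 93.7, 0.154 and 0.203 FPKM in M82. TTS2, a triterpenoid synthase of cuticular waxes, stood at 29.2, 8.30, 6.16 and 4.22 FPKM in n3122, against 20.8, 0.622 and 0.239 FPKM in M82. In n3122 these 3 genes stood at 9.39% to 28.4% of their own 35 DPA level by 47 DPA. They were above M82 at each shared age, and in all 3 the n3122 level at 60 DPA was still above that of M82 at 47 DPA. The excess at 47 and 54 DPA was required by the choice of genes. For 35 DPA the deposited q-values were 0.065 for CD1, 0.98 for GPAT6 and 0.25 for TTS2, so none of the 3 was called. CD1 and GPAT6 are also epidermis markers. The other 5 checked epidermis markers (CD2, CER6, SHN3, LTP1 and TTS1) summed to 3953, 2786, 3087 and 2977 FPKM in n3122, against 2395, 2153 and 332 FPKM in M82. LTP1 made up most of that sum, with 2647 and 2930 FPKM in n3122 at 47 and 54 DPA, against 2031 and 187 FPKM in M82. CER6 did not follow LTP1, with 89.1 and 93.6 FPKM in n3122 at 47 and 54 DPA, against 89.7 and 114 FPKM in M82. CD2 stood at 35.7 and 49.4 FPKM in n3122, against 29.3 and 29.2 FPKM in M82. TTS1 stood at 11.04 and 9.65 FPKM in n3122, against 3.30 and 0.902 FPKM in M82. SHN3 stood at 3.18 and 4.12 FPKM in n3122. In M82 it was listed at 0 at 47 DPA and at 0.492 FPKM at 54 DPA. At the 0.05 limit on the authors' deposited q-values, LTP1 and CD2 were higher in n3122 at 54 DPA and not called at 47 DPA. TTS1 was called higher at both ages, CER6 and SHN3 at neither. The part of these markers in the result was not tested. In bulk pericarp, fewer epidermal cells and less RNA per cell cannot be told apart.

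Of the cell wall genes, PMEU1, a pectin methylesterase, stood at 247, 147, 139 and 22.1 FPKM in n3122 over the 4 ages, against 314, 8.96 and 10.4 FPKM in M82 over the 3 ages. EXP5, an expansin, stood at 157, 109.6, 115 and 57.3 FPKM in n3122, against 146, 23.1 and 11.6 FPKM in M82. XTH7, a xyloglucan endotransglucosylase, stood at 42.4, 6.33, 4.25 and 0.775 FPKM in n3122, against 22.7, 0.111 and 0.112 FPKM in M82. XTH7 was far below its 35 DPA level in both genotypes, and by the authors' deposited tables it was called higher in n3122 at 35 DPA (q = 0.0033) but at neither later age (q = 0.17 at 47 DPA and 0.16 at 54 DPA). GAME12, a transaminase of steroidal glycoalkaloid synthesis, the bitter defence compounds of green fruit, stood at 57.5, 37.7, 38.3 and 10.98 FPKM in n3122, against 53.3, 5.29 and 0.762 FPKM in M82.

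The 7 genes named after their values were seen included the most abundant of the 239. SAM1, an S-adenosylmethionine synthetase that makes the methyl donor from which ethylene is also derived, stood at 2293, 1846, 1931 and 1560 FPKM in n3122 over the 4 ages, against 1824, 311 and 325 FPKM in M82 over the 3 ages. SAM1 was at 68.0% of its n3122 35 DPA level at 60 DPA. GP1, listed in RefSeq also as AroGP1, stood at 1149, 693, 679 and 371 FPKM in n3122, against 1040, 70.5 and 25.8 FPKM in M82. DEFL1, a defensin-like gene, stood at 808, 654, 620 and 368 FPKM in n3122, against 1310, 145 and 31.9 FPKM in M82, so that it was lower in n3122 at 35 DPA and higher at both later ages. TAP1, a peroxidase, stood at 309, 269, 253 and 117 FPKM in n3122, against 222, 12.2 and 24.7 FPKM in M82. GAD2, a glutamate decarboxylase that makes GABA, stood at 185, 302, 227 and 53.0 FPKM in n3122, against 214, 36.0 and 18.9 FPKM in M82. The gene listed as cevi19, which RefSeq also names as a desaturase (SlFAD2-6), stood at 64.6, 143, 148 and 56.0 FPKM in n3122, against 70.1, 1.05 and 4.08 FPKM in M82. THM27, a MYB transcription factor, stood at 41.8, 31.6, 36.4 and 23.0 FPKM in n3122, against 34.7, 5.96 and 7.86 FPKM in M82. In all 7 genes n3122 was at 60.3% or more of its own 35 DPA level at 47 DPA, and GAD2 and cevi19 were above it. Of the members with no checked name, the highest in M82 at 35 DPA were Solyc03g034370, with 1296, 1097, 1265 and 382 FPKM in n3122 over the 4 ages, against 1371, 192 and 72.0 FPKM in M82, and Solyc12g027540, with 1253, 746, 747 and 470 FPKM in n3122, against 931, 163 and 147 FPKM in M82.

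Both genotypes were compared at 35 DPA, before the M82 decline, in a contrast whose M82 value entered the choice of genes as the minimum and as the base of the decline, while its n3122 value did not. The authors' deposited table called 38 of the 238 tested genes higher in n3122 at 35 DPA, where 1.91% of all tested genes were called higher. That is 15.97% of the 238 genes, against 30 of 295 (10.2%) of the other genes silenced in M82 and 160 of 8094 (1.98%) of all genes abundant in M82 at this age. The same table called 4 of the 238 lower, where 1.33% of all tested genes were called lower. On the log2(FPKM + 1) scale the median difference of n3122 from M82 was 0.20 over the 239 genes, 0.07 over the other 300 and -0.02 over the 8102 abundant genes. Above 0 were 155 of the 239 genes (64.9%), against 57.7% of the other 300 and 45.8% of the 8102. Of the 38 genes called higher, 10 were among the 13 named photosynthesis genes and 1, XTH7, among the 16 other named genes. For FBA1 the log2 difference was 1.93, for CAB13 1.07 and for RBCS1 0.92, each at q = 0.0033, the smallest q-value that the authors' deposited table gives at 35 DPA. CAB7, CAB8 and CAB-10A were 0.62, 0.55 and 0.55 higher and were not called by that table (q = 0.14, 0.16 and 0.11). Over the whole light-harvesting and photosystem list, whose median difference was 0.81, the authors' deposited table called 15 of 24 tested genes higher at 35 DPA, and 23 were higher at an unadjusted p under 0.05. None was lower by either measure. CAB9, called higher, and PSBR, not called, joined this list after their values were seen, as FBA1 joined the carbon fixation list. The median over all tested genes was -0.01.

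**Figure D4:**
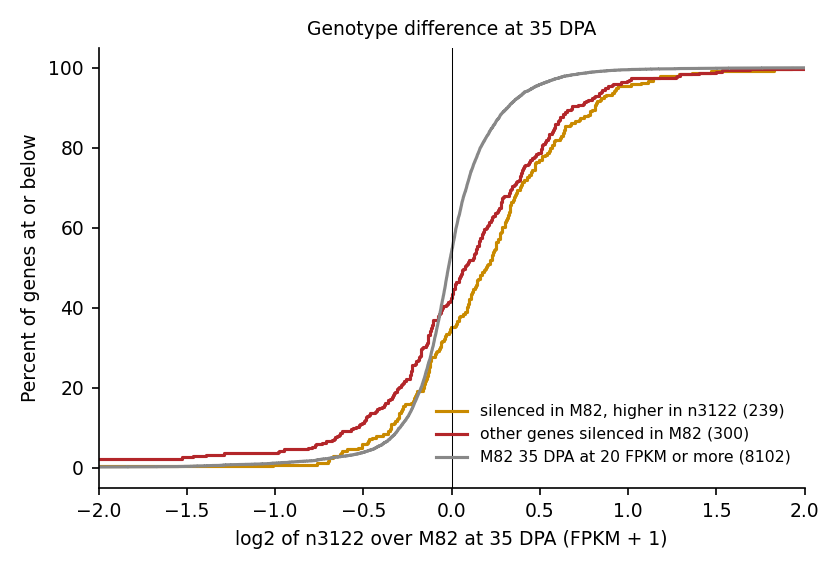
Cumulative share of genes (vertical axis, percent) by the log2 difference of n3122 from M82 at 35 DPA (horizontal axis, FPKM + 1), for the 239 genes, the other 300 genes silenced in M82 and the 8102 genes at 20 FPKM or more in M82. The median is 0.20 for the 239 genes, 0.07 for the other 300 and -0.02 for the 8102. The axis leaves out 1, 8 and 19 genes of these sets.

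The genes already called higher at 35 DPA had a different course in n3122 from the rest. Of these 38 genes 31 stood at most at 0.5 times their n3122 35 DPA level at 47 DPA, against 69 of the other 201. Their median log2 change in n3122 from 35 to 47 DPA was -1.83, against -0.65 in the other 201. The call at 35 DPA and this change share the n3122 level at 35 DPA, so a high value there moves both, and the difference is given as a description. The median n3122 level at 47 DPA was 50.3 FPKM for the 38 genes and 41.6 FPKM for the other 201.

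At 60 DPA, the oldest n3122 fruit, most of the genes were lower than at 54 DPA but still above ripening M82. Between 54 and 60 DPA in n3122, 137 of the 239 genes (57.3%) were at most 0.5 times their earlier level and 47 at most 0.25 times, against 51 of the other 300 silenced genes (17.0%) and 426 of the 8102 abundant genes (5.26%). The n3122 value at 54 DPA, the base of this change, was chosen to be high in the 239 genes, so these shares too are a description. The median log2 change was -1.17 over the 239 genes and -0.07 over 15814 genes expressed in all groups. At the same step the summed ripening markers stood at 591 FPKM at 54 DPA and 3299 FPKM at 60 DPA in n3122. The steepest change among named genes was that of MCPI, with 41.1 FPKM at 54 DPA and 2.51 FPKM at 60 DPA, followed by ARG2 and PMEU1. The median log2 change at this step was -0.61 in the 13 photosynthesis genes and -1.45 in the 16 other named genes. Of the 9 genes that had at least doubled in n3122 between 35 and 47 DPA, 8 were at most 0.5 times their 54 DPA level at 60 DPA. These 8 include Solyc11g013380, listed at 0 in n3122 at 35 and 60 DPA. Only 2 genes had at least doubled from 54 to 60 DPA, Solyc00g265510 and Solyc02g078890, named here after their values were seen. They stood at 5.06 and 35.3 FPKM at 54 DPA and at 13.2 and 77.9 FPKM at 60 DPA in n3122. The authors' deposited tables called neither gene at 47 or 54 DPA.

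The authors compared n3122 at 60 DPA with M82 at 47 DPA, an age at which these genes were chosen to be low in M82. Their deposited table called 157 of 233 tested genes higher in n3122, where 7.93% of all tested genes were called higher. It called 0 lower, where 7.07% of all tested genes were called lower, and 1 of the 239 was lower at an unadjusted p under 0.05. Among the other 300 silenced genes it called 114 of 291 higher. The median log2 difference was 1.58 over the 239 genes, and 78 of them were at least 4 times and 175 at least 2 times the M82 value of the same table. At least 2 times were thus 73.2% of the 239 genes, 41.3% of the other 300 and 6.81% of the 8102 abundant genes. The 239 genes were chosen for high n3122 values at 47 and 54 DPA, where the other 300 failed a condition. These counts and shares are therefore a description. The largest difference was that of ARG2, at 5.54, followed among named genes by cevi19 at 4.83. For CAB11 and CAB6A the log2 differences were 0.03 and 0.29, and the authors' deposited table called neither (q = 0.97 and 0.86). Of the 13 photosynthesis genes, 9 were called higher by the authors' deposited table in this comparison, and so were 13 of the 16 other named genes. In 237 of the 239 genes n3122 at 60 DPA was above M82 at 54 DPA, a pair the authors did not test. The condition at 54 DPA favoured low M82 values at that age, so this count is a description too.

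**Figure D5:**
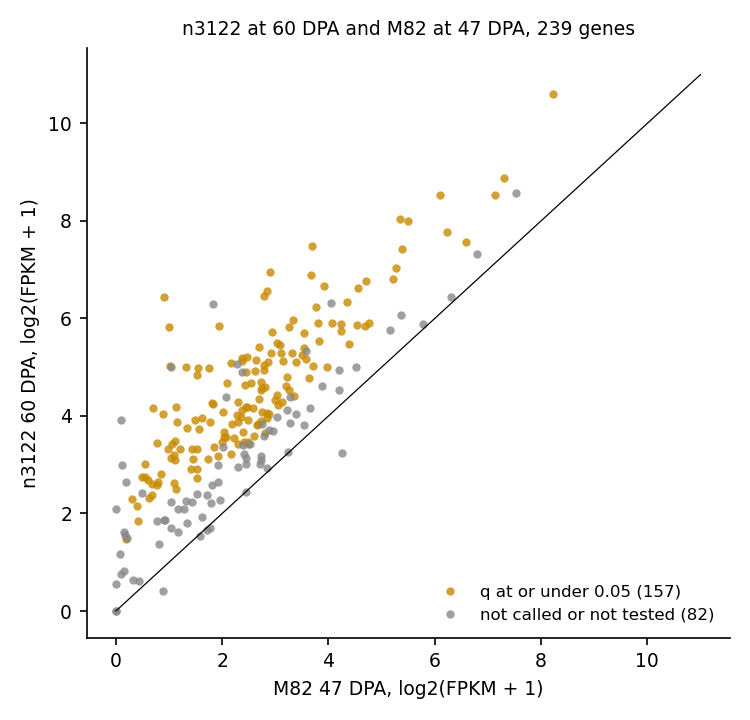
Level of each of the 239 genes in n3122 at 60 DPA (vertical axis) and in M82 at 47 DPA (horizontal axis), both as log2(FPKM + 1) from the same table. The line marks equal levels, and the 157 genes that the authors' deposited table called are coloured apart from the 82 not called or not tested.

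In M82 most of these genes were low at the last age too. From 47 to 54 DPA in M82, 72 of the 239 genes (30.1%) were at most 0.5 times their earlier level, 164 were within 2-fold and 3 had at least doubled. At most 0.5 times were also 68 of the other 300 silenced genes (22.7%) and 439 of the 8102 abundant genes (5.42%). The condition at 54 DPA favoured low M82 values at that age, so these shares are a description. All 13 photosynthesis genes were lower in M82 at 54 DPA than at 47 DPA, 12 of them at most 0.5 times, with a median log2 change of -2.52. At 54 DPA 9 of the 239 genes were listed at 0 in M82. Such a listing can be a failed estimate, so no fold is given for any of them alone. The counts by fold include them, with 1 FPKM added.

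The genes lay on all chromosomes. Chromosome 1 held 40 of them (16.7%, against 13.4% of the 8102 abundant genes), chromosome 2 held 28 (11.7%, against 9.95%) and chromosome 4 held 11 (4.603%, against 7.97%). By the order of identifiers, 9 of the 239 genes (3.77%) had another of them as next neighbour, against 23 of the other 300 silenced genes (7.67%). Among the 8102 abundant genes the share was 54.0%. Such a share grows with the size of the set, so these shares cannot be set against each other. GP1 was one of the 9 genes, with a neighbour on either side.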

How the data were processed

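RNA-seq of tomato pericarp gave 14 libraries in 7 groups of 2. The submitters' processing notes list CASAVA, Cufflinks and TopHat2 (version 2.0). Which build and annotation served is not given in the sources used here. Per the file headers, the authors deposited 4 tables, each with 1 FPKM value per gene for an n3122 group and an M82 group, a p-value and a q-value. Depth per library is unknown, and no test of replicates could be made. M82 at 47 DPA stands in 2 tables at a median ratio of 0.960 over 17296 genes, so the tables were scaled separately. Calls between genotypes come from 1 table each, with the authors' deposited q-value at most 0.05, and directions from the FPKM columns. Changes with age set tables side by side. Log2 differences used FPKM + 1, which understates changes of low genes.

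The 239 genes, the gene lists and the alternatives were chosen with earlier results of these data known. Named genes were, by plan, all listed genes among the 239 whose name passed the check (within 5% of the relative gene rank on the chromosome, and within 3% after the offset of nearby pairs), up to 4 examples per list that missed the conditions, and 2 members with no name. EIN2, RIN and the ripening and epidermis markers were named for reference. Further genes that missed the conditions and further members with no name were named after their values were seen, as stated where they appear. Identifiers were joined without version suffix in Python 3.11.15 with pandas 2.3.3, and the rule was tested on simulated data. No sequences of these genes were used here.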

Additional observations from a re-analysis of the deposited data

Results flagged for a closer look

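In 4 of the 239 genes the authors' deposited tables called n3122 lower than M82 at 35 DPA and higher at 47 and 54 DPA, so that the difference between the genotypes had opposite signs before and during M82 ripening. The count called lower at 35 DPA, 4 of 238 tested genes (1.68%), is near the share of all tested genes (1.33%) and of the 8094 tested genes abundant in M82 at 35 DPA (1.99%), so it is no result about these genes as a set. The 4 were DEFL1 and 3 genes with no checked name, Solyc01g066740, Solyc06g009190 and Solyc10g009380, singled out after their values were seen. On the log2(FPKM + 1) scale the differences of n3122 from M82 at 35 DPA were -0.70, -0.68, -0.63 and -0.76, and at 47 DPA 2.17, 3.08, 2.48 and 2.19. Solyc01g066740 stood at 48.6 and 30.2 FPKM in n3122 at 35 and 47 DPA, against 78.2 and 2.68 FPKM in M82. Solyc06g009190 stood at 62.2 and 31.2 FPKM in n3122, against 96.6 and 4.79 FPKM in M82. Solyc10g009380 stood at 29.4 and 31.5 FPKM in n3122, against 50.7 and 6.16 FPKM in M82. The higher values at 47 DPA follow from the choice of genes. The difference between the ages itself was not tested, and at 35 DPA 17 of the 239 genes were lower at an unadjusted p under 0.05.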

How the results depend on the processing

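The set of 239 genes depends on its limits. It held 110 genes with a pseudocount of 5 FPKM, 144 with a minimum of 50 FPKM, 365 with 3-fold and 74 with 8-fold limits. At 35 DPA, the number called higher (38) was 19 with the pseudocount of 5, 12 with 8-fold limits and 11 with a minimum log2 difference of 1. The number called lower (4) was 2, 7 and 1 with the pseudocount of 5, the 3-fold and the 8-fold limits, and 0 at a q-value at or under 0.01 or with the minimum log2 difference of 1, where 17 were lower at an unadjusted p under 0.05 in the Cufflinks tables. In the comparison of n3122 fruit of 60 DPA with M82 fruit of 47 DPA, the number called higher (157) was 82 with the pseudocount of 5, 97 with the minimum of 50 FPKM and 50 with 8-fold limits. The number of genes above 0.5 times their 35 DPA level in n3122 at 47 DPA (139) was 75 with the pseudocount of 5, 70 with the minimum of 50 FPKM, 214 with a minimum of 1 FPKM, 223 with 3-fold and 41 with 8-fold limits. The number at most 0.5 times the 54 DPA level at 60 DPA (137) was 61 with the pseudocount of 5, 80 with the minimum of 50 FPKM and 59 with 8-fold limits. These counts move with the size of the set. As a share of it, genes called higher at 35 DPA ran from 14.6% to 18.1% over the 10 alternatives of the rule, genes called higher at 60 against 47 DPA from 61.6% to 74.5%, genes above 0.5 times in n3122 at 47 DPA from 48.6% to 68.2%, and genes at most 0.5 times at 60 DPA from 47.7% to 79.7%. Scaling all groups to an equal median gave 242 genes, 238 of them among the 239, and the other value of M82 at 47 DPA gave 245. Of 66 values recomputed, 43 were within 1.5 times the reported count. No paired analysis was possible because the columns carry 1 value per group and no replicate, and for the same reason no replicate could be left out. Without counts or an error, small differences between groups cannot be judged.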
